A study of Homo sapiens with 9 samples.

Results

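Syndecans and glypicans are the main families of cell-surface heparan sulfate proteoglycans, and all 10 human members were followed here across knockdown of YAP and of TAZ: the 4 syndecan genes SDC1, SDC2, SDC3 and SDC4, and the 6 glypican genes GPC1, GPC2, GPC3, GPC4, GPC5 and GPC6. All known members of both families were taken by gene symbol, and each matched 1 of the 36601 Ensembl genes counted. The cells were LX2, an immortalised human hepatic stellate cell line, a model of the liver cells that become collagen-producing myofibroblasts. The 3 groups had siRNA against YAP (siYAP), siRNA against TAZ (siTAZ) or non-targeting siRNA (siNT), each at 20 nM with a lipid reagent, in medium with serum, and RNA was taken after 7 days of treatment. Each group had 3 libraries, all from this single line, and what separated the replicates is not stated, so the p-values measure the spread between these libraries, which may be technical. All 3 groups, siNT included, were thus given an siRNA. On GRCh38 (GENCODE 29), SDC1 (ENSG00000115884) lies on chromosome 2 at 20200797 to 20225433, SDC2 (ENSG00000169439) on chromosome 8 at 96493351 to 96611780, SDC3 (ENSG00000162512) on chromosome 1 at 30869467 to 30908761 and SDC4 (ENSG00000124145) on chromosome 20 at 45325288 to 45348424. GPC1 (ENSG00000063660) lies on chromosome 2 at 240435671 to 240468078, GPC2 (ENSG00000213420) on chromosome 7 at 100169606 to 100177372, and GPC3 (ENSG00000147257) and GPC4 (ENSG00000076716) lie close together on chromosome X. GPC5 (ENSG00000179399) and GPC6 (ENSG00000183098) likewise share a stretch of chromosome 13, where GPC6 spans 93226842 to 94407401.

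Syndecans are transmembrane core proteins with a short cytoplasmic tail that binds PDZ proteins such as syntenin, whereas glypicans are held in the outer leaflet of the membrane by a glycosylphosphatidylinositol (GPI) anchor. Both carry heparan sulfate, a long sulfated sugar chain that binds growth factors, chemokines, Wnt and Hedgehog proteins and matrix proteins, and both can be shed from the surface. The chain is built on a 4-sugar linker by xylosyl-, galactosyl- and glucuronosyltransferases, extended by the EXT enzymes, sulfated in the Golgi, trimmed outside the cell by the SULF sulfatases and broken down in lysosomes. YAP and TAZ are transcriptional coactivators of the Hippo pathway that work mainly through the TEAD DNA-binding proteins.

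The libraries held 16498508 to 18752805 counts in genes. Levels are given as CPM, read counts scaled to library size (after TMM), on which 3 counts corresponded to 0.157 to 0.177 CPM. YAP1 stood at 25.2 to 28.0 CPM in siYAP libraries and 205 to 212 CPM in siNT libraries, and WWTR1, the TAZ gene, at 8.61 to 10.4 CPM in siTAZ libraries and 55.8 to 66.1 CPM in siNT libraries, so each target was low in the libraries that name it. The other coactivator moved too: YAP1 stood at 161 to 176 CPM in siTAZ libraries, 18.8% below siNT (edgeR, adjusted p = 2.42e-08), and WWTR1 at 75.2 to 76.2 CPM in siYAP libraries, a log2 rise of 0.29 over siNT (edgeR, adjusted p = 6.31e-05). Of 15 stellate and fibroblast markers, 13 were tested and LRAT was at 0 throughout; their summed level was 4775 to 4843 CPM after siYAP, 14725 to 14823 after siTAZ and 9979 to 10103 after siNT. Hepatocyte (8 genes), cholangiocyte and epithelial (5), endothelial (6) and leukocyte (6) markers summed to at most 131 CPM in any library, and of the leukocyte sum CD68 made up 115 CPM after siYAP, 12.4 after siTAZ and 22.3 after siNT, with PTPRC at 0.147, 0.427 and 2.60 CPM. In such bulk RNA, fewer cells of a type and less RNA per cell cannot be told apart.

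Expression was carried by 5 of the 10 genes in every group. Divided by the length of the gene's exons, the level of SDC4 was 112 ± 4.77 CPM per kilobase after siYAP, 92.9 ± 4.22 after siTAZ and 94.7 ± 1.24 after siNT (SD, n = 3 each). GPC1 was next after siTAZ and siNT, and SDC1 after siYAP. GPC1 had 55.7 ± 5.13, 77.5 ± 2.84 and 69.9 ± 1.23 CPM per kilobase in the same order of groups, and SDC1 77.3 ± 7.06, 50.9 ± 1.90 and 50.8 ± 1.22. SDC2 and SDC3 were at a middle level. Their values were 17.9 and 24.5 CPM per kilobase after siYAP, 27.6 and 24.6 after siTAZ, and 19.3 and 18.1 after siNT, so that SDC3 stood above SDC2 after siYAP and below it in the other groups. In siNT cells 97.8% of the 15425 tested genes with a known length had a lower level than SDC4, 96.6% a lower one than GPC1, 95.02% a lower one than SDC1, 83.1% a lower one than SDC2 and 81.9% a lower one than SDC3. GPC2 and GPC6 were far lower, at 0.574 and 1.13 CPM per kilobase after siYAP, 1.30 and 0.500 after siTAZ, and 0.944 and 0.457 after siNT. In all groups the ranges of neighbours in the order of levels did not overlap, apart from GPC4 and GPC3 at its low end. Some gaps were very small. After siNT the lowest SDC2 library had 18.870 CPM per kilobase and the highest SDC3 library 18.856. GPC5 and GPC4 had 1 count each in siNT replicate 1 and in siYAP replicate 1, so their order there reflects exon length only.

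The make-up of this transcript pool differed between the knockdowns. Syndecans made up 79.3% to 80.7% of the summed CPM per kilobase of the 10 genes in siYAP libraries, 70.7% to 72.1% in siTAZ libraries and 71.6% to 72.6% in siNT libraries. GPC1 alone held 19.3% ± 0.761 after siYAP, 28.1% ± 0.788 after siTAZ and 27.5% ± 0.582 after siNT. SDC1 held 26.7% ± 0.886, 18.5% ± 0.809 and 20.0% ± 0.419 in the same order, and SDC4 38.7%, 33.7% and 37.2%. SDC2 had its highest share, 10.0% ± 0.399, after siTAZ, with 6.21% after siYAP and 7.60% after siNT, and the share of SDC3 was 8.49%, 8.92% and 7.13%. The siYAP libraries thus stood apart by lower shares of GPC1, SDC2 and GPC2 and higher shares of SDC1, SDC4 and GPC6, with no overlap with the other groups. The order of SDC4, GPC1 and SDC1 depends on the length assumed. With the longest transcript in place of all exons, GPC1 held 39.1% after siTAZ and 38.5% after siNT, above SDC4 at 26.7% and 29.8%. After siYAP it then held 28.3%, above SDC1 at 24.5% and below SDC4 at 32.5%. The syndecan part was thus lower in every group by that length. The total over the 10 genes was 269 to 299.95 CPM per kilobase after siYAP, 267 to 282 after siTAZ and 254 to 256 after siNT.

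**Figure D1:**
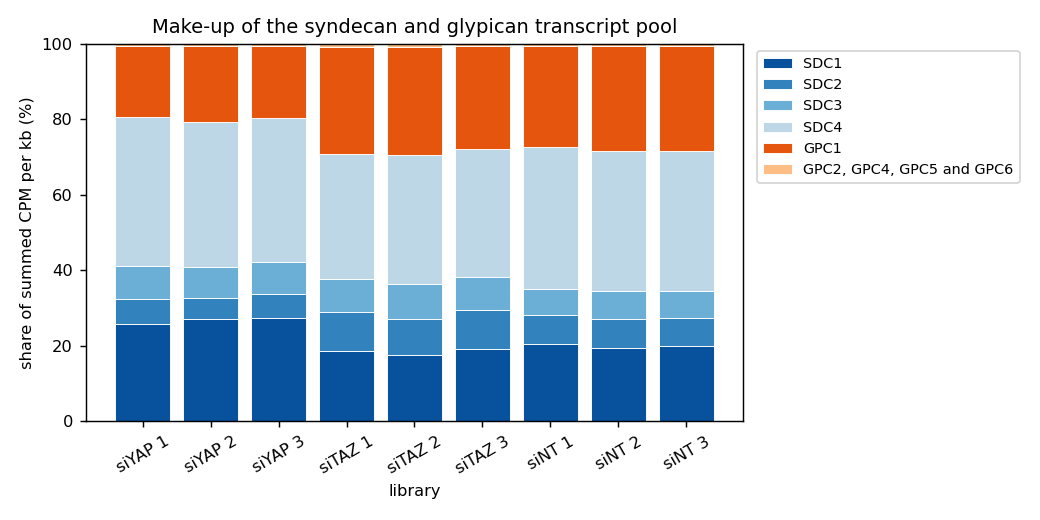
Share of each syndecan and glypican gene in the summed CPM per kilobase of the 10 genes (y axis, percent), 1 bar per library, with GPC2, GPC4, GPC5 and GPC6 drawn together and GPC3 at 0. The syndecan part (blue) is 79.3% to 80.7% in siYAP libraries and 70.7% to 72.6% in siTAZ and siNT libraries.

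Of the 10 genes, 7 passed the filter on low counts and were tested by edgeR's quasi-likelihood method; a gene was called at a Benjamini-Hochberg adjusted p under 0.05 over 15560 genes. After siYAP, against siNT, 4 were called higher (SDC1, SDC3, SDC4 and GPC6) and 3 lower (SDC2, GPC1 and GPC2). Among all genes tested in that comparison 67.1% were called, 33.8% higher and 33.4% lower, so a call as such is common there. After siTAZ, against siNT, 3 were called higher (SDC2, SDC3 and GPC1) and 0 lower. The count of 0 lower was the same at an unadjusted p under 0.05, with DESeq2 and with limma-voom. The background there was 34.6% called, 16.4% higher and 18.2% lower. Both comparisons use the same siNT libraries.

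**Figure D2:**
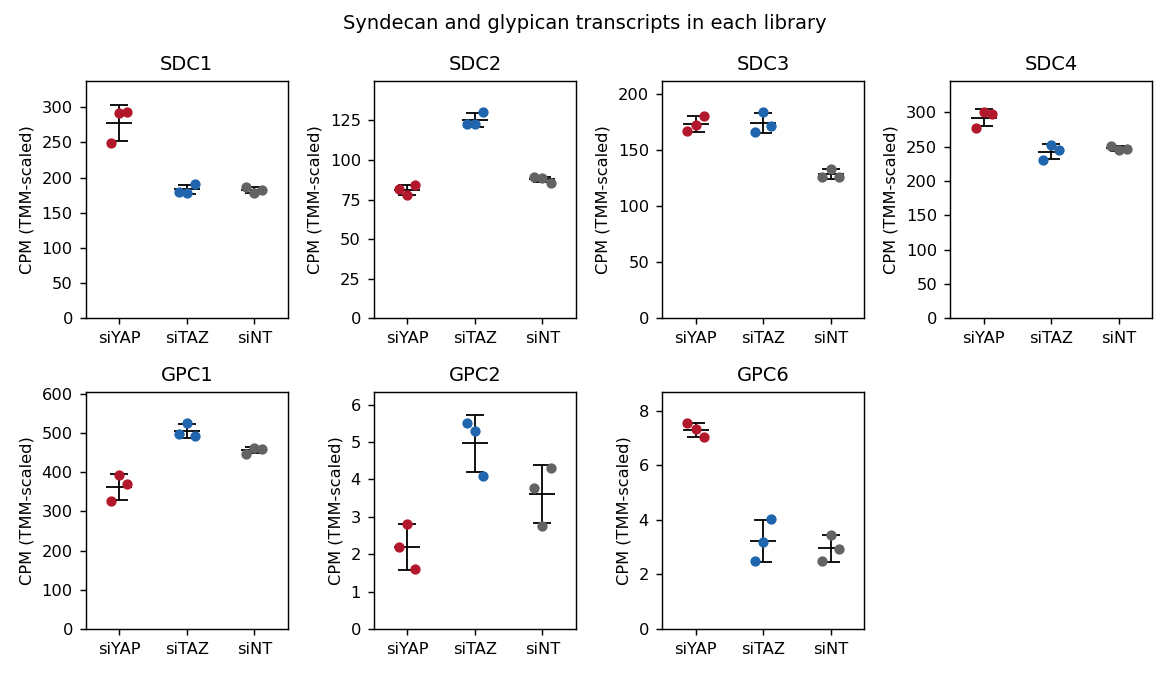
Level of the 7 tested genes in CPM (y axes, linear and starting at 0) in each siYAP, siTAZ and siNT library (points), with the mean and SD of 3 libraries (bars). SDC1 and GPC6 stand apart in siYAP libraries, SDC2 in siTAZ libraries, and SDC3 is higher in both knockdowns than in siNT.

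SDC1, known as CD138, is the syndecan of epithelia and plasma cells. Its level was 249, 292 and 293 CPM in the siYAP libraries, 179.9, 178.5 and 191 CPM in the siTAZ libraries and 187, 179 and 182 CPM in the siNT libraries. The siYAP libraries were the highest, without overlap, and siYAP replicate 1 was the lowest of them; it also had the largest share of reads in no gene, 7.49%, against 4.73% to 6.54% in the other libraries. SDC1 rose 1.52-fold after siYAP (log2 0.61 ± 0.05, SE; edgeR, adjusted p = 2.03e-14). After siTAZ the log2 difference from siNT was 0.00, with a 95% interval of -0.09 to 0.10 (edgeR, adjusted p = 0.974). The summed level of the epithelial markers was 79.9 to 83.1 CPM after siYAP, 68.5 to 72.5 after siTAZ and 50.2 to 52.6 after siNT, of which SOX9 alone made up 79.96, 68.4 and 49.1 CPM on average. KRT7 averaged 1.42, 1.95 and 1.80 CPM in the same order of groups, and KRT19, EPCAM and CDH1 were below 0.25 CPM on average, with EPCAM and CDH1 at 0.127 and 0.0177 CPM after siYAP and 0.231 and 0.114 CPM after siNT. The hepatocyte markers, with TTR at 0, summed to 13.0 to 16.1 CPM after siYAP, 1.14 to 2.19 after siTAZ and 2.01 to 2.09 after siNT, nearly all of it SERPINA1 (14.7, 1.47 and 1.89 CPM on average). Their part in the SDC1 result was not tested.

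SDC3, or N-syndecan, is best known from the nervous system and from muscle precursors. It was the 1 tested gene called higher in both knockdowns. Its level was 167, 172 and 180.4 CPM in siYAP libraries, 166, 184 and 171 CPM in siTAZ libraries and 125, 133 and 126 CPM in siNT libraries. All 6 knockdown libraries lay above all siNT libraries. The rise was 1.35-fold after siYAP (log2 0.43 ± 0.04; edgeR, adjusted p = 5.98e-14) and 1.36-fold after siTAZ (log2 0.44 ± 0.04; edgeR, adjusted p = 2.30e-13). Between siTAZ and siYAP the log2 difference was 0.01, with a 95% interval of -0.08 to 0.09.

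SDC4, a syndecan of focal adhesions that binds and activates protein kinase C alpha, had a smaller change. Its level was 278, 301 and 298 CPM in siYAP libraries, 231, 253 and 245 CPM in siTAZ libraries and 251, 245 and 246 CPM in siNT libraries. The siYAP libraries lay above all others, while siTAZ and siNT libraries overlapped. SDC4 rose 1.18-fold after siYAP (log2 0.24 ± 0.04; edgeR, adjusted p = 8.28e-08). After siTAZ the log2 difference was -0.03, with a 95% interval of -0.10 to 0.05 (edgeR, adjusted p = 0.617).

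SDC2, or fibroglycan, is the syndecan typical of fibroblasts and other mesenchymal cells. Its level was 81.5, 77.7 and 84.3 CPM in siYAP libraries, 123, 123 and 130.4 CPM in siTAZ libraries and 89.0, 88.6 and 85.6 CPM in siNT libraries. The siTAZ libraries stood well above the rest, and the siYAP libraries just below siNT. SDC2 rose 1.43-fold after siTAZ (log2 0.51 ± 0.05; edgeR, adjusted p = 5.70e-14). After siYAP it fell by 0.11 in log2 (0.05 SE; edgeR, adjusted p = 0.0397), a call that was lost without siNT replicate 1 (adjusted p = 0.0751), siNT replicate 2 (0.0658) or siYAP replicate 2 (0.167), with upper-quartile scaling (0.145) and with DESeq2 (0.0512), within a range of 0.0168 to 0.167 over all alternatives.

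**Figure D3:**
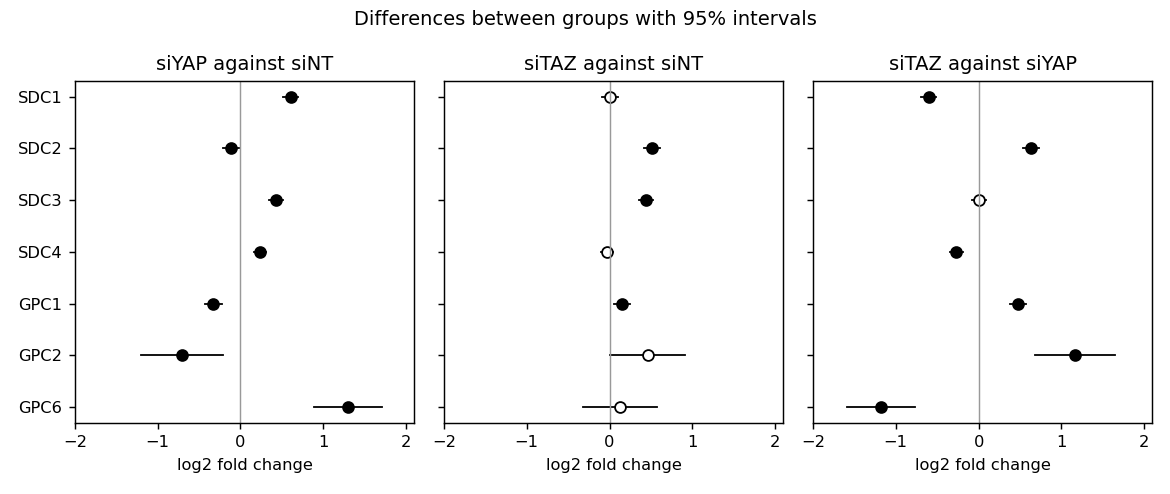
Log2 fold changes of the 7 tested genes (points, x axis) with 95% intervals from the edgeR fit (lines), for siYAP against siNT, siTAZ against siNT and siTAZ against siYAP; filled points passed the test and open points did not. SDC2 and GPC1 lie left of 0 after siYAP and right of 0 after siTAZ.

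GPC1 is the glypican expressed most widely in adult tissues and a low-affinity partner of fibroblast growth factors. It was the only glypican with a high level in these cells. Its level was 327, 393 and 369 CPM in siYAP libraries, 497, 526 and 492 CPM in siTAZ libraries and 447, 462 and 458 CPM in siNT libraries, so the 3 groups did not overlap. After siYAP, GPC1 fell by 0.33 in log2 (0.05 SE; edgeR, adjusted p = 3.16e-06), a level 1.26-fold lower. It rose 1.11-fold after siTAZ (log2 0.15 ± 0.05; edgeR, adjusted p = 0.0175), and that call was lost without siNT replicate 1 (adjusted p = 0.0695), siNT replicate 3 (0.0520) or siTAZ replicate 2 (0.0707), with a range of 6.30e-05 to 0.0707 over all alternatives. The summed stellate and fibroblast markers had the same order of groups as GPC1 and SDC2, highest after siTAZ (14725 to 14823 CPM), lowest after siYAP (4775 to 4843) and between them after siNT (9979 to 10103), a sum carried by COL1A1, SPARC and COL3A1. Other markers of that list had another order: COL1A2 averaged 449 CPM after siYAP, 569 after siTAZ and 213 after siNT, ACTA2 35.3, 71.1 and 22.5 CPM, PDGFRA 8.55, 6.52 and 4.04 CPM, and RELN 15.4, 2.19 and 2.97 CPM, while VIM was highest after siNT. Their part in the GPC1 and SDC2 results was not tested.

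GPC6, a glypican of mesenchymal tissues that takes part in Hedgehog signalling in the growth plate, had the largest change of the tested genes in the comparison of siYAP with siNT, at a low level. It stood at 7.56, 7.31 and 7.04 CPM in siYAP libraries (119 to 142 counts), 2.49, 3.17 and 4.04 CPM in siTAZ libraries (46 to 70 counts) and 2.48, 3.45 and 2.94 CPM in siNT libraries (42 to 60 counts). The siYAP libraries lay above all others, and the siTAZ and siNT libraries overlapped. GPC6 rose 2.46-fold after siYAP (log2 1.30 ± 0.21; edgeR, adjusted p = 1.03e-07). After siTAZ the log2 difference was 0.12, with a 95% interval of -0.33 to 0.57 (edgeR, adjusted p = 0.723). An antisense gene, AL354811.1, shares 476 of the 6468 exon bases of GPC6. Whether the counting used strand is not known, so reads within that stretch cannot be assigned to either gene with certainty.

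GPC2 is a glypican of the developing nervous system and of neuroblastoma. It stood at 2.18, 2.82 and 1.60 CPM in siYAP libraries (27 to 54 counts), 5.52, 5.30 and 4.10 CPM in siTAZ libraries (71 to 102 counts) and 3.77, 2.76 and 4.30 CPM in siNT libraries (48 to 76 counts). The siYAP and siNT libraries overlapped, as did the siTAZ and siNT libraries. After siYAP, GPC2 fell by 0.71 in log2 (0.25 SE; edgeR, adjusted p = 0.0105), a call lost without siNT replicate 3 (adjusted p = 0.0725) or siYAP replicate 3 (0.0780), with a range of 0.00354 to 0.0780 over all alternatives. After siTAZ the log2 difference was 0.46 with an SE of 0.23, which did not pass (edgeR, adjusted p = 0.112).

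The other glypicans were at or near the limit of detection and were not tested. GPC3, the oncofetal glypican of hepatocellular carcinoma, had 0 counts in all 9 libraries, and 3 counts over the libraries of a group would be 0.0547 CPM after siYAP, 0.0554 after siTAZ and 0.0577 after siNT. Its neighbour GPC4 had 1 count in each group. GPC5 had 8 counts after siYAP, 8 after siTAZ and 11 after siNT, with 1 to 6 in a library, and no difference was detectable at this depth.

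The knockdowns also differed from each other. Of the 7 tested genes, siTAZ against siYAP called 3 higher (SDC2, GPC1 and GPC2) and 3 lower (SDC1, SDC4 and GPC6), at a background of 66.2% called, 33.0% higher and 33.2% lower. SDC2 was 1.54-fold higher after siTAZ than after siYAP (log2 0.63 ± 0.05; edgeR, adjusted p = 2.95e-18), GPC1 1.39-fold higher (log2 0.48 ± 0.05; adjusted p = 1.29e-08) and GPC2 2.25-fold higher (log2 1.17 ± 0.24; adjusted p = 2.17e-05). In each of these 3 genes, picked by their calls, the siTAZ and siYAP libraries did not overlap, which adds no separate support to the calls. SDC1 was 1.52-fold lower after siTAZ than after siYAP, SDC4 1.203-fold lower and GPC6 2.26-fold lower (edgeR, adjusted p = 2.30e-14, 5.00e-09 and 6.95e-07). GPC6 and GPC2, the low glypicans, thus changed places: GPC6 was the higher of them per kilobase after siYAP and GPC2 after siTAZ and siNT.

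Promoter windows (250 bases before to 50 after the transcript start, RefSeq on GRCh38.p14) were searched for 8 of the 10 genes. These were 9 windows because SDC1 has a second start. No window of SDC2 or GPC3 was searched, so the motif counts leave these genes out. The TEAD core GGAATG was in 0 of the 9 windows, against 14.03% of 35116 windows of all genes, and the AP-1 word TGANTCA in 0 of 9, against 7.71%. A kappa B motif was in the SDC4 window and no other of the 9 (5.91% of all windows), and a CArG box, the motif of serum response factor, in the GPC2 window and no other (1.29%). The GC box GGGCGG was in 8 of 9 windows, against 45.0% of all, and the GPC6 window, the poorest of the 9 in G and C, was the one without it. The TATA word TATAAA was in the GPC6 and GPC5 windows, 2 of 9, against 11.5% of all. All motifs were searched on both strands, and the kappa B and CArG matches overlap none of the other matches. A match is a description and no match says only that these letters are not in this window. The windows of SDC4 and GPC2 are shown for their single matches, that of GPC6 because its gene rose most after siYAP and its base composition stands apart, and that of GPC1 as the abundant glypican, 83.3% G and C. The capitals mark the kappa B motif in SDC4 (chr20:45348375-45348674, minus strand), starting 97 bases before the transcript start, and the CArG box in GPC2 (chr7:100177332-100177631, minus strand), starting 50 bases before it. In GPC6 (chr13:93226557-93226856, plus strand) they mark TATAAA, starting 155 bases before the start, and in GPC1 (chr2:240435413-240435712, plus strand) the GC boxes, read as CCGCCC on this strand.
SDC4: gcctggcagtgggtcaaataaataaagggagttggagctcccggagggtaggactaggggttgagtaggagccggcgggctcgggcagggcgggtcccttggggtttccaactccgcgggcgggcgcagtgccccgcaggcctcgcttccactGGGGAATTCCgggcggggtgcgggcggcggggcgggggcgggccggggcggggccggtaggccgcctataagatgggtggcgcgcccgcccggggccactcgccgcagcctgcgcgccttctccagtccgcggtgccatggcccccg
GPC2: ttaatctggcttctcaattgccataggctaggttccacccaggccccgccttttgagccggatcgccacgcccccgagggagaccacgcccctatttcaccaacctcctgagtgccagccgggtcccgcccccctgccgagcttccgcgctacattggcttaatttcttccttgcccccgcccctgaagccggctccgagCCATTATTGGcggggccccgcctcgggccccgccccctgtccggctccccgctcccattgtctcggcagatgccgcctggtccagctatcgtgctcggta
GPC6: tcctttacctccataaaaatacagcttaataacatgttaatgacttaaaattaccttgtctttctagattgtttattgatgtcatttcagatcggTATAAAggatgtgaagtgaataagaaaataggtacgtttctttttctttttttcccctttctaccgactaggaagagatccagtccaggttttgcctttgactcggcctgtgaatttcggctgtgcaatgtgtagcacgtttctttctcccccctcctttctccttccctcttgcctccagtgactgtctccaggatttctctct
GPC1: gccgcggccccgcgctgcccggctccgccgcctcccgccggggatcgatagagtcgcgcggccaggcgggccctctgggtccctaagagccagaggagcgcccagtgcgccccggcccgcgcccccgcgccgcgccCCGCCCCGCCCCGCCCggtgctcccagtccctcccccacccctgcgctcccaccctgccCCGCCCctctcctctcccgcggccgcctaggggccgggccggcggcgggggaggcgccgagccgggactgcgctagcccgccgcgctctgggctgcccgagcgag

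The genes that build, edit and remove heparan sulfate, or handle its core proteins, were read from 7 lists of 82 genes, of which 70 were tested. After siYAP 33 of these were called higher and 24 lower (81.4%, against 67.1% of all genes), with a median log2 fold change of 0.28 against 0.02 over all genes. After siTAZ 24 were called higher and 23 lower (67.1%, against 34.6% of all genes), with a median of 0.07 against 0.01. The largest adjusted p among the genes named here for a change after siYAP was 0.0192 (PXYLP1), and for a change after siTAZ 0.0355 (EXTL2), both from edgeR. The PXYLP1 call after siYAP was lost without siNT replicate 1 (adjusted p = 0.0519), siYAP replicate 1 (0.0612) or siYAP replicate 3 (0.0908), with a range of 0.00511 to 0.0908 over all alternatives. The EXTL2 call after siTAZ was lost without siNT replicate 1 (0.141) or 3 (0.0763), siTAZ replicate 2 (0.0629) or 3 (0.153), without the filter (0.0618) and with DESeq2 (0.0570), within 0.0205 to 0.153.

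The calls in the breakdown and editing list were all higher. Of 11 tested genes, 9 were called higher and 0 lower after siYAP (median log2 0.74), where 33.8% of all genes were called higher, and 7 were called higher and 0 lower after siTAZ (median 0.41), where 16.4% were; none was lower at an unadjusted p under 0.05, with DESeq2 or with limma-voom. SULF2, a sulfatase that removes 6-O-sulfates from the chain outside the cell, stood at 40.005 ± 4.48 CPM after siYAP, 21.0 ± 0.936 after siTAZ and 10.6 ± 0.455 after siNT (SD, n = 3 each), a 3.76-fold and a 1.98-fold rise. Its relative SULF1, given here as the pair of SULF2 after its values were seen, averaged 42.4, 25.5 and 17.5 CPM and rose 2.43-fold and 1.46-fold. Of the lysosomal enzymes, the iduronate sulfatase IDS rose 2.43-fold after siYAP, and the acetyltransferase HGSNAT 1.34-fold after siTAZ. The heparanase HPSE, also chosen after its values were seen, averaged 13.5, 15.9 and 15.8 CPM and passed in neither comparison (edgeR, adjusted p = 0.0953 and 0.960).

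**Figure D4:**
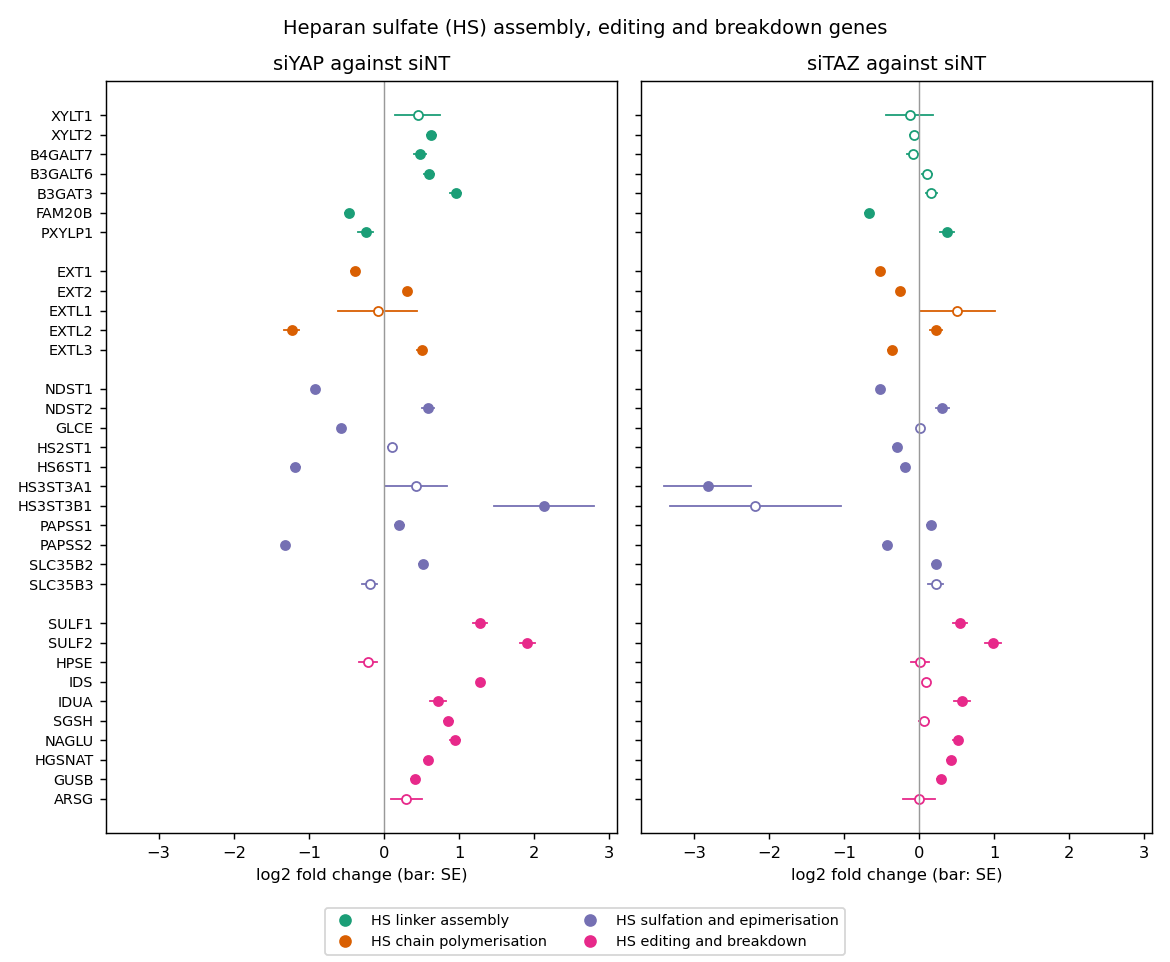
Log2 fold changes (x axes) of genes of heparan sulfate (HS) assembly, editing and breakdown after siYAP (left) and siTAZ (right) against siNT, with lines for 1 SE; filled points passed the edgeR test and open points did not. In the editing and breakdown list every filled point lies right of 0 in both panels.

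Sulfation genes were called on both sides. Of 11 tested, 4 were higher and 4 lower after siYAP, and 3 higher and 5 lower after siTAZ. That is 72.7% called in each comparison, against 67.1% of all genes after siYAP and 34.6% after siTAZ. NDST1, which starts sulfation of the chain, averaged 148 ± 2.09 CPM after siYAP, 194 ± 10.9 after siTAZ and 279 ± 1.2 after siNT, and fell 1.88-fold and 1.44-fold. Its paralog NDST2 averaged 31.7, 26.2 and 21.2 CPM in the same order and rose by 0.59 and 0.31 on the log2 scale. The 6-O-sulfotransferase HS6ST1 fell 2.27-fold after siYAP, to 44.2 CPM against 101 CPM after siNT. PAPSS2, which makes the sulfate donor, fell 2.49-fold after siYAP and 1.35-fold after siTAZ, while its paralog PAPSS1 rose by 0.21 and 0.16 on the log2 scale. The PAPSS1 call after siTAZ was lost without siNT replicate 2 (adjusted p = 0.127), siNT replicate 3 (0.0519) or siTAZ replicate 3 (0.223), within 0.00581 to 0.223. The transporter of that donor, SLC35B2, rose 1.43-fold and 1.16-fold, and the 2-O-sulfotransferase HS2ST1 fell 1.22-fold after siTAZ.

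For the linker, 4 of 7 genes were higher and 2 lower after siYAP, and 1 higher and 1 lower after siTAZ. The share called was 85.7% after siYAP and 28.6% after siTAZ, against 67.1% and 34.6% of all genes. After siYAP the glucuronosyltransferase B3GAT3 rose 1.93-fold, the xylosyltransferase XYLT2 1.55-fold and the galactosyltransferase B3GALT6 1.52-fold. FAM20B, the kinase that phosphorylates the linker xylose, fell 1.38-fold after siYAP and 1.59-fold after siTAZ. PXYLP1, the phosphatase that removes this phosphate, fell by 0.25 on the log2 scale after siYAP and rose 1.29-fold after siTAZ. Among 5 chain polymerisation genes, 2 were higher and 2 lower after siYAP, and 1 higher and 3 lower after siTAZ, 80% called in each. EXT1, a subunit of the chain polymerase, averaged 110.3 CPM after siYAP, 101 after siTAZ and 145 after siNT, and fell 1.31-fold and 1.44-fold. Its partner EXT2 rose 1.24-fold after siYAP and fell 1.19-fold after siTAZ, and EXTL3, which adds the first chain sugar, rose 1.42-fold and fell 1.28-fold. EXTL2, a transferase that can end chain growth, fell 2.35-fold after siYAP and rose 1.17-fold after siTAZ.

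Of 14 genes that shed or release the core proteins, 6 were higher and 4 lower after siYAP, and 5 higher and 4 lower after siTAZ. Called were 71.4% after siYAP, near the 67.1% of all genes, and 64.3% after siTAZ, against 34.6% of all genes. The gelatinase MMP9 averaged 109 CPM after siYAP, 4.58 after siTAZ and 11.8 after siNT, a 9.26-fold rise and a 2.56-fold fall. ADAM17, a syndecan sheddase, rose 1.53-fold after siYAP and the membrane protease MMP16 2.44-fold, while ADAM9 fell 1.95-fold and ADAMTS1 3.45-fold. NOTUM, a secreted lipase first described as cutting glypican anchors, was called lower after siYAP at 0.110 CPM against 0.577 CPM after siNT, both low. After siTAZ the proprotein convertase FURIN, which cleaves GPC3, rose 1.51-fold, the gelatinase MMP2 1.54-fold and the membrane protease MMP14, a syndecan-1 sheddase, 1.31-fold, and ADAMTS1 fell 3.16-fold and ADAM10 1.22-fold. MMP14 was also called higher after siYAP (given after its values were seen), with 739 ± 59.4 CPM after siYAP, 213 ± 20.4 after siTAZ and 162 ± 3.99 after siNT. MMP2 averaged 155, 165 and 107 CPM in the same order of groups and was called higher after siYAP too (1.45-fold). ADAM9 averaged 498, 840 and 973 CPM and was called lower after siTAZ too (1.16-fold), and MMP16 averaged 9.04, 5.08 and 3.70 CPM. Among 14 syndecan partners, 4 were higher and 9 lower after siYAP, and 5 higher and 6 lower after siTAZ. Their share called was 92.9% and 78.6%, beside the same 67.1% and 34.6% of all genes. SDCBP, which encodes syntenin, rose 1.81-fold after siYAP, the integrin beta subunit ITGB1 1.21-fold and the scaffold CASK 1.48-fold. The membrane linker ezrin, EZR, averaged 162 CPM after siYAP, 404 after siTAZ and 538 after siNT, and fell 3.31-fold and 1.33-fold. PRKCA, the kinase that SDC4 activates, fell 2.27-fold after siYAP and 1.17-fold after siTAZ, and the small GTPase ARF6 fell 1.30-fold and 1.51-fold. The integrin subunit ITGB3 averaged 44.3 CPM after siYAP, 131 after siTAZ and 63.7 after siNT, a 1.44-fold fall and a 2.06-fold rise; ITGB5 rose 1.27-fold and CASK 1.19-fold after siTAZ.

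Other carriers of heparan sulfate were called on both sides too, with 4 of 8 tested higher and 3 lower after siYAP, and 2 higher and 4 lower after siTAZ. The share called was 87.5% and 75%, against 67.1% and 34.6% of all genes. TGFBR3, or betaglycan, a co-receptor of transforming growth factor beta, averaged 75.1 ± 1.12 CPM after siYAP, 25.9 ± 3.45 after siTAZ and 17.0 ± 1.65 after siNT, and rose 4.42-fold and 1.52-fold. The receptor NRP1 had a log2 rise of 1.32 after siYAP and the basement membrane proteoglycan agrin, AGRN, one of 0.79. COL18A1, which encodes the chain of collagen XVIII, fell 1.29-fold after siYAP and rose 1.64-fold after siTAZ. SPOCK1 fell 1.55-fold and 1.38-fold and serglycin, SRGN, 1.23-fold and 1.57-fold after siYAP and siTAZ, and CD44 fell 1.47-fold after siTAZ.

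The genes closest in pattern to each tested member were those with the smallest root mean square difference of centred log2 CPM over the 9 libraries, out of 10425 or 10426 candidates. For SDC1 these were EIF1 (0.035 on the log2 scale) and MAN1B1 (0.043), for SDC2 FURIN (0.050) and ZNF827 (0.056), and for SDC3 NUCB1 (0.042) and DNAJC1 (0.047). For SDC4 they were SH3GL1 (0.026) and TWF2 (0.027), and for GPC1 ODF2 (0.040) and TKT (0.040). The low glypicans had more distant neighbours: SNHG15 (0.18) and SLC9A3-AS1 (0.19) for GPC2, and ZNF438 (0.14) for GPC6. The members themselves varied around their own mean by 0.13 (SDC4) to 0.61 (GPC6) on the same scale. FURIN, the closest to SDC2, stood at 234 ± 1.14 CPM after siTAZ and 156 ± 4.29 CPM after siNT.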

How the data were processed

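RNA from 9 libraries of LX2 cells (3 per group) was analysed. The authors deposited raw read counts per Ensembl gene, 1 file per library; the submitters' processing notes name HTSeq, STAR 2.5.0c, Trim Galore, Picard and SAMtools without settings. They name the mouse build mm10 although every gene ID is human, so the build, annotation release and strand setting behind the deposited counts are not known. HTSeq's lines for reads in no gene (4.73% to 7.49% of counted reads) and in several (6.33% to 6.91%) stayed out of all totals. Names came from a gene name table (36366 IDs) and GENCODE 29 (219 IDs). Lengths are the union of GENCODE 29 exons.

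The tests used edgeR 4.0.16 under R 4.3.3: filterByExpr (minimum count 10, total 15) kept 15560 genes, libraries were scaled by TMM, and 1 robust quasi-likelihood model was fitted over all 9 libraries, with two-sided tests and calls at a Benjamini-Hochberg adjusted p under 0.05. An SE is the log2 fold change divided by the square root of its F value. Intervals are 95%. Named were all members, YAP1 and WWTR1, up to 3 called genes per list and direction with the smallest p, and the 2 closest genes (average log2 CPM of at least 3) per tested member. The members and lists were chosen with earlier results of these data known. On simulated counts of 15560 genes, the test recovered 16, 36, 41 and 49 of 50 genes changed 1.2-, 1.5-, 2- and 4-fold in the siYAP layout, with 9 false calls, and 19, 32, 42 and 47 in the siTAZ layout, with 13. Far fewer genes were changed there than were called in the data, so these rates need not hold for the real tests. As alternatives, scaling was by RLE or upper quartile, the filter was dropped or set to 1 CPM in 3 libraries, the replicate number was a block, and the compared groups were fitted alone; others were DESeq2 1.42.0, limma-voom (limma 3.58.1) and leaving out each library. Floors of 3 counts cover counting error only. Some genes that the naming rule chose are not reported here.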

Additional observations from a re-analysis of the deposited data

Results flagged for a closer look

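SDC2 and GPC1 differed between the knockdowns in direction: each was called lower after siYAP and higher after siTAZ, against the same siNT libraries. The difference itself, siTAZ minus siYAP, was 0.63 on the log2 scale for SDC2 and 0.48 for GPC1 (edgeR, adjusted p = 2.95e-18 and 1.29e-08), with all 3 siTAZ libraries above all 3 siYAP libraries in each. That separation describes the same difference and is no separate support for it. For SDC2 the siYAP side of the pair and for GPC1 the siTAZ side lost the call without some single libraries.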

How the results depend on the processing

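In 17 alternatives, 2173 of 2207 values for the named genes kept their direction and side of the threshold. The members called after siYAP were 4 higher in every alternative and 2 or 3 lower; after siTAZ they were 2 or 3 higher and 0 lower; for siTAZ against siYAP they stayed at 3 and 3. Differences that turned in sign were all uncalled. For SDC1 after siTAZ they were -0.0025 with RLE scaling, -0.0014 without the filter, -0.0024 with DESeq2 and -0.028 to 0.021 over left-out libraries, among them -0.015 and -0.00046 without siNT replicate 2 or 3 and -0.028 without siTAZ replicate 3. Leaving out single libraries, SDC4 after siTAZ ranged from -0.059 to 0.0071 (positive without siTAZ replicate 1), and GPC6 from -0.065 (without siTAZ replicate 3) to 0.28. SDC3, siTAZ against siYAP, turned to -0.0087 with upper-quartile scaling and ranged from -0.027 (without siTAZ replicate 2) to 0.043 over left-out libraries, with -0.014 without siYAP replicate 1. The cause was not tested. With the longest transcript as length, the shares after siYAP, siTAZ and siNT were 24.5%, 16.01% and 17.4% for SDC1, 32.5%, 26.7% and 29.8% for SDC4, 7.87%, 7.82% and 6.30% for SDC3, and 28.3%, 39.1% and 38.5% for GPC1, and SDC2 moved to 9.59% after siTAZ and 7.33% after siNT. Same-numbered libraries did not deviate together over the tested genes (r = -0.031 to 0.014). Whether they were handled together cannot be told from this, as what separated the replicates is not stated. The replicate block left 4 members higher and 3 lower after siYAP, 3 higher after siTAZ and 3 and 3 between the knockdowns. It moved the genes called after siYAP to 5240 higher and 5194 lower. The counts of GPC3, GPC4 and GPC5 are too few for any comparison.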

Other observations

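Between the knockdowns, siTAZ against siYAP called 22 of the 70 tested heparan sulfate genes higher and 37 lower, where 33.0% of all genes were called higher and 33.2% lower, and of the editing and breakdown list 8 of 11 lower and 0 higher (also 0 at an unadjusted p under 0.05, with DESeq2 and with limma-voom). IDS averaged 145 CPM after siTAZ and 329 CPM after siYAP, the lysosomal sulfamidase SGSH 48.5 and 83.9 CPM, and SULF2 21.0 and 40.005 CPM. The epimerase GLCE went the other way, at 161 ± 0.703 CPM after siTAZ and 108 ± 0.689 CPM after siYAP (SD, n = 3 each), as did HS6ST1 with 88.0 and 44.2 CPM. Both 3-O-sulfotransferases of the HS3ST3 pair, HS3ST3A1 and HS3ST3B1 (the second chosen after its values were seen), were called lower after siTAZ than after siYAP, at 0.167 against 1.62 CPM and 0.0373 against 0.873 CPM, where the siTAZ means lie at or below the level of 3 counts in a library. CD44 averaged 317 CPM after siTAZ, 694 CPM after siYAP and 466 CPM after siNT, so that the knockdown groups lay on opposite sides of siNT.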
